A study of Mus musculus with 10 samples.

Results

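Red pulp macrophage genes are a panel of 10 genes used to recognise the macrophages that clear aged red cells in the spleen: Hpgd, Vcam1, Spic, Hmox1, Slc40a1, Cd163, Adgre1, C1qa, C1qb and C1qc. They were taken by symbol from 19938 genes measured with probe sets that name 1 gene, and each of the 10 had 1 such probe set. They were followed here in a cell type that is not a macrophage, the splenic conventional dendritic cell type 1 (cDC1), sorted from mice of 4 genotypes. The arrays were 2 of Zeb2 Id2 DKO cDC1s, 2 of Nfil3 Zeb2 DKO cDC1s, 3 of Zeb2 KO cDC1s and 3 of WT cDC1s. The groups other than WT are thus all labelled as lacking Zeb2, a zinc finger repressor. The first also lacks Id2, whose product keeps E proteins off DNA, and the second Nfil3, a basic leucine zipper repressor. The alleles, any Cre driver, and the age, sex and strain of the mice are not given in the sources used here, nor is the gate of the sort. Nothing in the labels says whether replicates came from separate mice, so p-values rest on the spread among these arrays alone, which may be technical.

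Red pulp macrophages engulf old red cells, break down their haem and return the iron to the blood. Their identity depends on Spic, an ETS family transcription factor. Haem induces Spic by causing the degradation of the repressor Bach1, which also represses Hmox1. The haem oxygenase that Hmox1 encodes opens the haem ring, Slc40a1 encodes ferroportin, the exporter of the freed iron, and Cd163 a scavenger receptor for haemoglobin bound to haptoglobin. Adgre1 encodes F4/80, the classical mouse macrophage surface marker. Vcam1, which red pulp macrophages need Spic to express, encodes an adhesion ligand of the integrin alpha 4 beta 1. Hpgd encodes the enzyme that inactivates prostaglandins. C1qa, C1qb and C1qc encode the A, B and C chains that together form C1q, the recognition molecule of the classical complement pathway.

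All 10 cDC1 markers examined, among them Xcr1, Clec9a, Batf3 and Irf8, lay above the background level on all 10 arrays. So did all 6 plasmacytoid dendritic cell genes measured and 8 of 12 neutrophil genes, so this level does not tell cell types apart. The mean log2 intensity of the cDC1 markers was 11.4 to 11.54 over the arrays. Cadm1, a marker among the 10, was called lower in Zeb2 Id2 DKO (10.45 and 10.28) than in WT (11.26, 11.21 and 11.25). Background was taken as the 95th percentile of the log2 intensities of 1194 olfactory and vomeronasal receptor genes on the same array, which was 5.73 to 5.99. Array medians over all probe sets were 6.25 to 6.37 log2. Arrays of a group correlated at 0.9969 in Zeb2 Id2 DKO, at 0.9969 in Nfil3 Zeb2 DKO, at 0.9864 or more in Zeb2 KO and at 0.9934 or more in WT. Zeb2 KO replicate 3 stood apart from the other arrays of its genotype, so results that rest on it are given with and without it. Id2 was at 5.01 and 4.98 log2 in Zeb2 Id2 DKO, against 10.15, 10.32 and 10.43 in WT. Nfil3 was at 6.20 and 7.09 in Nfil3 Zeb2 DKO, against 9.98, 10.77 and 10.68 in WT. Zeb2 overlapped between the arrays labelled Zeb2 KO (6.10, 6.27 and 5.40) and those of WT (6.0, 5.93 and 6.30). It was higher, at 6.78 and 6.82, on both Zeb2 Id2 DKO arrays, and at 6.46 and 6.24 on those of Nfil3 Zeb2 DKO. Whether its probe set lies in the deleted part is not known here, so this gene does not check the label.

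Hpgd, Vcam1, Spic and Hmox1 varied most among the 10 genes, with ranges over the 10 arrays of 2.14, 1.42, 1.64 and 1.52 log2. The range was 0.92 for Slc40a1 and 0.35 to 0.77 for the other 5. By standard deviation over the arrays, Hpgd, Vcam1, Spic and Hmox1 lay at percentiles 98.7 to 99.6 of all genes. C1qc (percentile 92.2) and Slc40a1 (90.7) also varied more than most genes. Hpgd, Vcam1, Hmox1 and C1qa were above background on all 10 arrays and Spic on 9. C1qb was above it on 8 arrays and C1qc on 5. Slc40a1 and Adgre1 were each above it on 1 array and Cd163 on none. The plot of the 10 genes by array shows these levels.

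**Figure D1:**
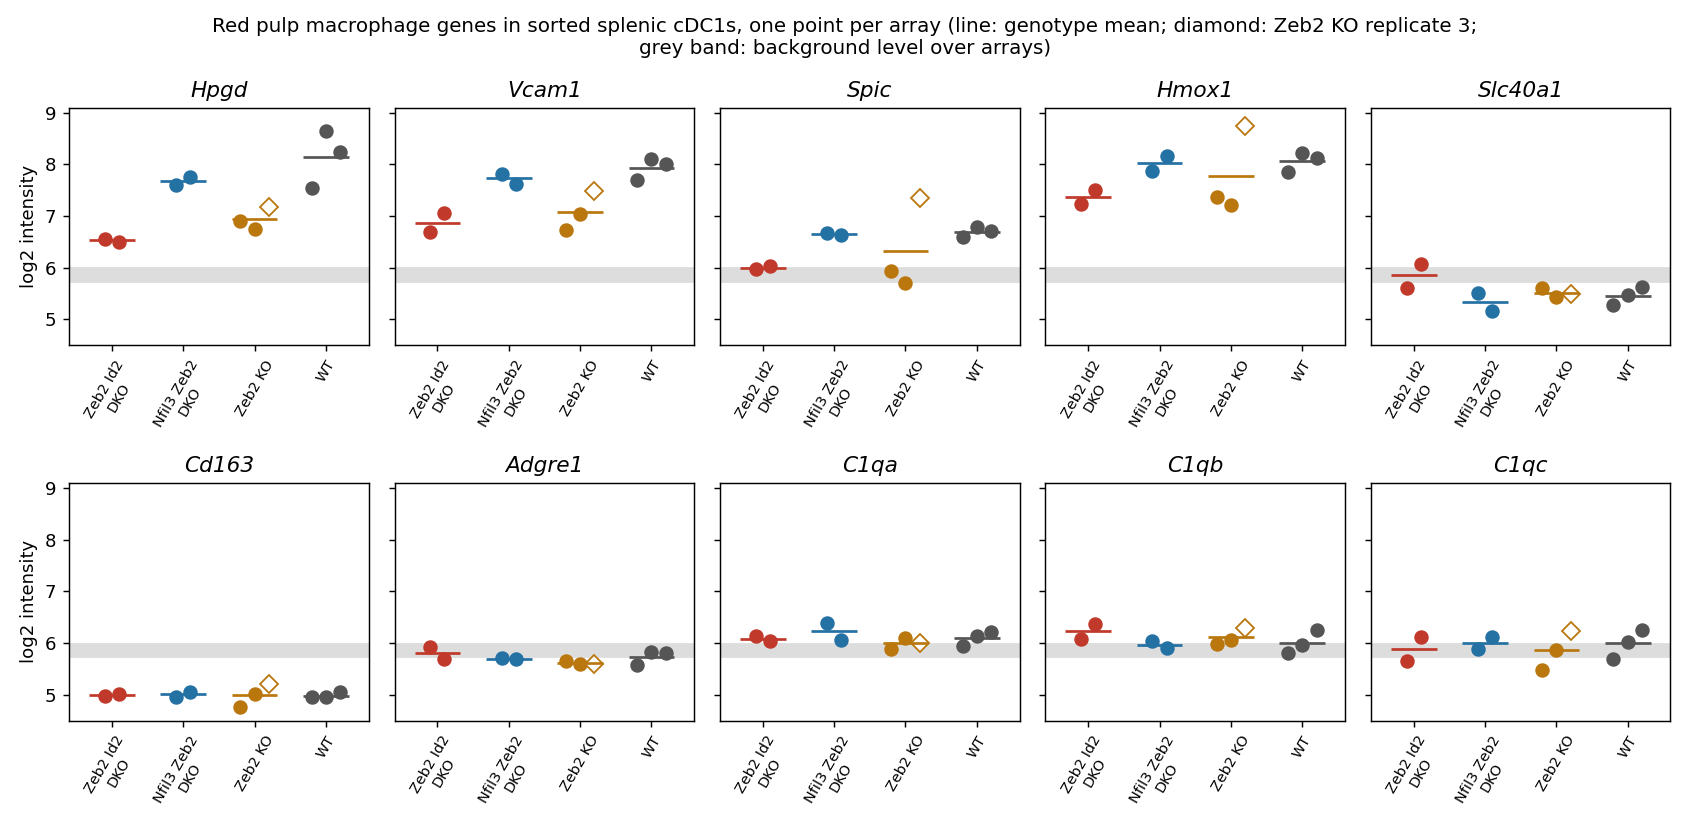
Log2 intensity of each gene (y axis) on every array, by genotype (x axis); points are arrays, lines genotype means, the open diamond is Zeb2 KO replicate 3, and the grey band spans the background level of the 10 arrays (5.73 to 5.99). Hpgd, Vcam1, Spic and Hmox1 are low in Zeb2 Id2 DKO and in Zeb2 KO replicates 1 and 2, and the other 6 genes stay near or below the band.

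Hpgd was lowest in Zeb2 Id2 DKO. Its log2 intensity was 6.56 and 6.50 in Zeb2 Id2 DKO, 7.61 and 7.76 in Nfil3 Zeb2 DKO, 6.90, 6.74 and 7.17 in Zeb2 KO, and 7.55, 8.64 and 8.24 in WT. Every Zeb2 Id2 DKO array was thus below every Zeb2 KO array, which in turn lay below every Nfil3 Zeb2 DKO and WT array, while Nfil3 Zeb2 DKO and WT overlapped. Such separation is common with 2 or 3 arrays per group. Of all genes, 10.2% were lower without overlap in Zeb2 Id2 DKO than in Zeb2 KO, 16.2% than in WT and 29.5% than in Nfil3 Zeb2 DKO. For Zeb2 KO, 5.03% were lower without overlap than in WT, and 11.9% were higher in Nfil3 Zeb2 DKO than in Zeb2 KO. Hpgd fell 3.06-fold in Zeb2 Id2 DKO against WT (log2 fold change -1.61, 95% confidence interval -2.17 to -1.06, limma with Benjamini-Hochberg adjustment over all genes, adjusted p = 0.0115). As in every bulk sample, fewer cells of a type that expresses a gene and less of its RNA per cell cannot be told apart. The call was lost without WT replicate 3 (adjusted p = 0.0561), Zeb2 Id2 DKO replicate 1 (0.098) or Zeb2 Id2 DKO replicate 2 (0.128). In Zeb2 KO against WT the log2 fold change was -1.21 (-1.70 to -0.71), which did not pass with all arrays (adjusted p = 0.168). Without Zeb2 KO replicate 3 it was -1.33 (-1.85 to -0.81) and passed (adjusted p = 0.0334), and without WT replicate 1 it was -1.51 (adjusted p = 0.0084). Between Zeb2 Id2 DKO and Nfil3 Zeb2 DKO it was -1.15 (-1.76 to -0.55, adjusted p = 0.091; adjusted p = 0.0379 without Zeb2 KO replicate 3 and 0.0147 without WT replicate 1). Zeb2 Id2 DKO and Zeb2 KO differed by -0.41 (-0.96 to 0.15, adjusted p = 0.825), and Nfil3 Zeb2 DKO and WT by -0.46 (-1.01 to 0.09, adjusted p = 1).

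Vcam1 had the same order of genotypes. It measured 6.69 and 7.05 log2 in Zeb2 Id2 DKO, 7.82 and 7.63 in Nfil3 Zeb2 DKO, 6.73, 7.04 and 7.49 in Zeb2 KO, and 7.69, 8.11 and 8.0 in WT. Zeb2 Id2 DKO and Zeb2 KO arrays overlapped each other, and both lay below all Nfil3 Zeb2 DKO and WT arrays, which also overlapped. The shares of all genes separated in this way, given for Hpgd, apply here too. Vcam1 fell 2.09-fold in Zeb2 Id2 DKO against WT (log2 fold change -1.06, -1.52 to -0.61, limma adjusted p = 0.0328). That call ended without any one of WT replicates 2 and 3 (adjusted p = 0.129 and 0.123), the Nfil3 Zeb2 DKO arrays (0.0619 for each) and the Zeb2 Id2 DKO arrays (0.345 for replicate 1 and 0.119 for replicate 2), and also with an offset of 16 added before log2 (0.0602). In Zeb2 KO against WT its log2 fold change was -0.85 (-1.26 to -0.44, adjusted p = 0.214), and without Zeb2 KO replicate 3 it was -1.05 (-1.38 to -0.72, adjusted p = 0.0162). Zeb2 Id2 DKO differed from Nfil3 Zeb2 DKO by -0.86 (-1.36 to -0.36, adjusted p = 0.128; adjusted p = 0.0208 without Zeb2 KO replicate 3). The difference of Zeb2 Id2 DKO from Zeb2 KO was -0.21 (-0.67 to 0.24), and that of Nfil3 Zeb2 DKO from WT -0.21 (-0.66 to 0.25); neither passed (adjusted p = 0.916 and 1).

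Spic and Hmox1 followed the same pattern on 9 arrays and left it together on the other one, Zeb2 KO replicate 3. Spic measured 5.98 and 6.03 log2 in Zeb2 Id2 DKO, 6.68 and 6.64 in Nfil3 Zeb2 DKO, 5.93, 5.70 and 7.35 in Zeb2 KO, and 6.60, 6.78 and 6.71 in WT. The value of 7.35 in Zeb2 KO replicate 3 was the highest of all arrays, whereas the other 2 Zeb2 KO arrays held the lowest values. The low Spic values lay near or below background, which was 5.73 and 5.90 on those 2 arrays and 5.84 and 5.81 in Zeb2 Id2 DKO. Hmox1 measured 7.24 and 7.51 in Zeb2 Id2 DKO, 7.87 and 8.17 in Nfil3 Zeb2 DKO, 7.37, 7.22 and 8.74 in Zeb2 KO, and 7.85, 8.23 and 8.12 in WT. Here too Zeb2 KO replicate 3 was the highest array, while Zeb2 KO replicate 2 was the lowest.

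That array set the test of both genes. With all arrays, Spic differed by -0.69 (-1.50 to 0.11, limma adjusted p = 0.606) in Zeb2 Id2 DKO against WT and by -0.37 (-1.09 to 0.35, adjusted p = 0.89) in Zeb2 KO against WT. With it left out, Spic fell in both: by -0.69 (-0.89 to -0.50, adjusted p = 0.00182) in Zeb2 Id2 DKO and by -0.88 (-1.08 to -0.68, adjusted p = 0.00543) in Zeb2 KO, which is 1.84-fold. As the low Spic values lay near background, the size and spread of these falls may be limited by that level. The estimate against WT for Zeb2 Id2 DKO was the same in both fits, and its standard error was 0.36 with that array and 0.09 without it. For Hmox1 the differences from WT were -0.70 (-1.49 to 0.10, adjusted p = 0.594) in Zeb2 Id2 DKO and -0.29 (-1.0 to 0.42, adjusted p = 0.92) in Zeb2 KO. Without that array they were -0.70 (-0.99 to -0.40, adjusted p = 0.0168) and -0.77 (-1.06 to -0.48, adjusted p = 0.0309), a 1.71-fold fall in Zeb2 KO. In Nfil3 Zeb2 DKO both genes were close to WT, with differences of -0.04 (-0.85 to 0.77) for Spic and -0.05 (-0.84 to 0.75) for Hmox1. Between Zeb2 Id2 DKO and Nfil3 Zeb2 DKO the differences were -0.65 for each gene (adjusted p = 0.599 for Spic and 0.597 for Hmox1), and without that array they passed (adjusted p = 0.00577 and 0.0386). Against Zeb2 KO without replicate 3, Nfil3 Zeb2 DKO was higher by 0.84 for Spic (0.62 to 1.05, adjusted p = 0.0122) and by 0.72 for Hmox1 (0.40 to 1.04, adjusted p = 0.0638). Only the first of these passed, and the values for Vcam1 (0.84, adjusted p = 0.0578) and Hpgd (0.86, adjusted p = 0.151) in that comparison did not pass either.

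**Figure D2:**
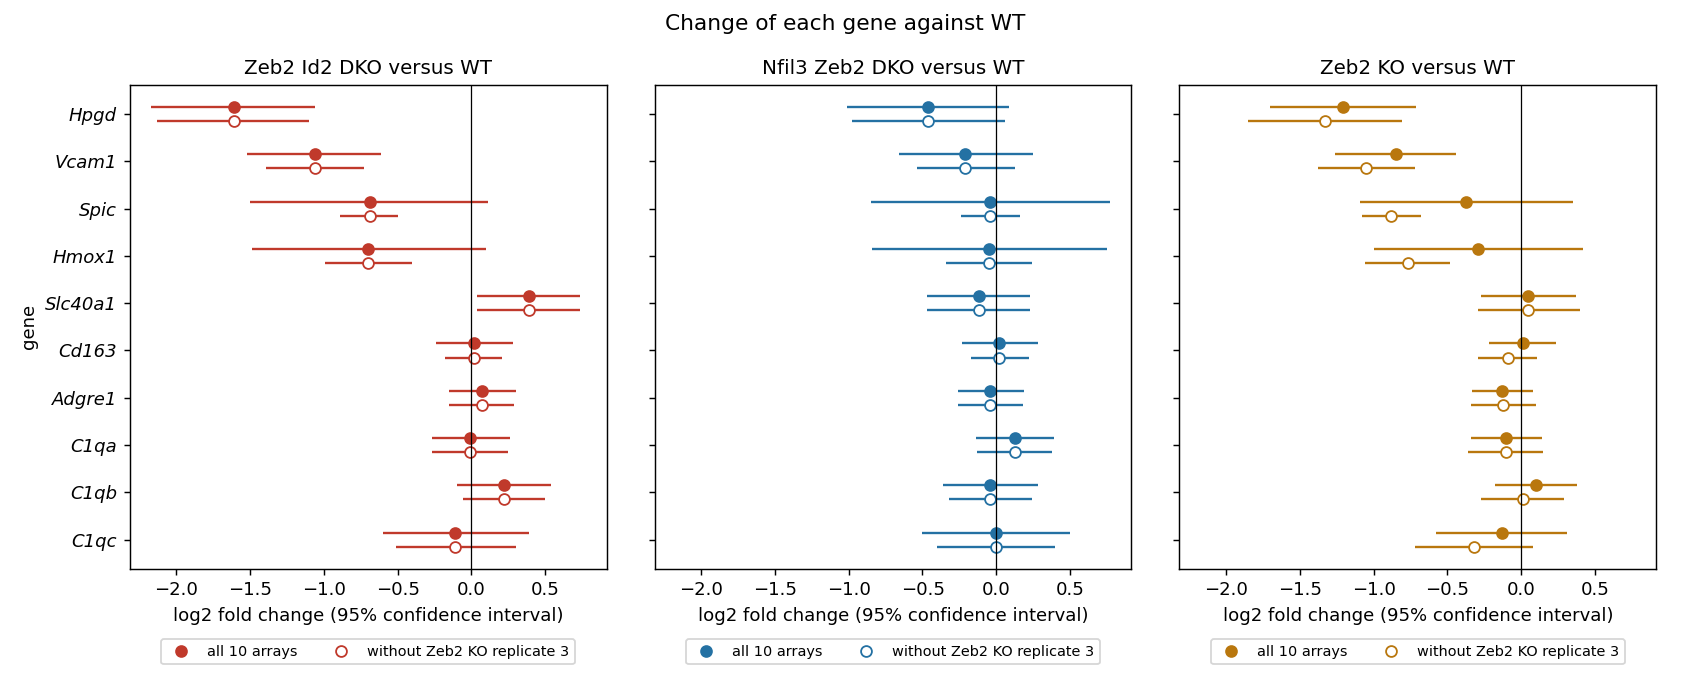
Log2 fold change against WT (x axis, bars are 95% confidence intervals) of each gene (y axis) in Zeb2 Id2 DKO, Nfil3 Zeb2 DKO and Zeb2 KO, fitted with all 10 arrays (filled) and without Zeb2 KO replicate 3 (open). The intervals of Spic and Hmox1 narrow and leave 0 in Zeb2 Id2 DKO and Zeb2 KO when that array is left out.

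Slc40a1, Cd163 and Adgre1 lay at or below background on 9 or 10 of the 10 arrays, so a fall in them could not have been seen. Slc40a1, the iron exporter, measured 5.61 and 6.08 log2 in Zeb2 Id2 DKO, 5.52 and 5.16 in Nfil3 Zeb2 DKO, 5.60, 5.43 and 5.50 in Zeb2 KO, and 5.27, 5.48 and 5.63 in WT. Zeb2 Id2 DKO replicate 2 was the 1 array above background. Its difference between Zeb2 Id2 DKO and WT was 0.39 (0.04 to 0.74) and did not pass (limma adjusted p = 0.413), and the same held against Nfil3 Zeb2 DKO (0.51, 0.12 to 0.89, adjusted p = 0.269). Cd163 ranged from 4.77 to 5.20 over all arrays, below background throughout, so its level is not distinguished from no expression. Its differences from WT were 0.02 (-0.24 to 0.28) for Zeb2 Id2 DKO, 0.02 (-0.23 to 0.28) for Nfil3 Zeb2 DKO and 0.01 (-0.22 to 0.24) for Zeb2 KO. Adgre1 measured 5.93 and 5.69 in Zeb2 Id2 DKO, 5.71 and 5.69 in Nfil3 Zeb2 DKO, 5.65, 5.59 and 5.59 in Zeb2 KO, and 5.58, 5.83 and 5.81 in WT. Only Zeb2 Id2 DKO replicate 1 exceeded background. The Adgre1 differences from WT were 0.07 (-0.15 to 0.30), -0.04 (-0.26 to 0.19) and -0.13 (-0.33 to 0.08) in Zeb2 Id2 DKO, Nfil3 Zeb2 DKO and Zeb2 KO.

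The C1q genes lay close to background in every genotype. C1qa, which encodes the A chain, measured 6.13 and 6.05 log2 in Zeb2 Id2 DKO, 6.39 and 6.07 in Nfil3 Zeb2 DKO, 5.89, 6.10 and 6.01 in Zeb2 KO, and 5.94, 6.14 and 6.22 in WT. Its groups overlapped in every comparison, and its difference between Zeb2 Id2 DKO and WT was -0.01 (-0.27 to 0.26). For the B chain gene, C1qb, the values were 6.09 and 6.37 in Zeb2 Id2 DKO, 6.04 and 5.91 in Nfil3 Zeb2 DKO, 5.99, 6.06 and 6.29 in Zeb2 KO, and 5.81, 5.96 and 6.26 in WT. That gene differed by 0.22 (-0.10 to 0.54) between Zeb2 Id2 DKO and WT. C1qc, encoding the C chain, measured 5.66 and 6.12 in Zeb2 Id2 DKO, 5.88 and 6.11 in Nfil3 Zeb2 DKO, 5.49, 5.86 and 6.24 in Zeb2 KO, and 5.70, 6.03 and 6.26 in WT, a difference of -0.11 (-0.60 to 0.39) between Zeb2 Id2 DKO and WT. The genes are neighbours on chromosome 4, in the order C1qb, C1qc and C1qa with no other coding gene between them.

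Counted over the panel, members changed in 1 comparison when all arrays were used. The changes were in Zeb2 Id2 DKO set against WT: 2 of 10 fell (Hpgd and Vcam1), where 0.557% of all genes fell, and 0 rose, where 0.878% did. With an unadjusted p under 0.05 there were 3 of 10, against 10.2% of all genes. The median log2 fold change of the 10 was -0.06, against -0.01 over all genes. In Zeb2 KO against WT, limma called 0 of 10, and 0.0201% of all genes were called. At an unadjusted p under 0.05 the count was 2 of 10, against 7.39% of all genes. When replicate 3 of Zeb2 KO was left out, 4 of 10 fell in Zeb2 KO against WT, where 0.441% of all genes fell, and 4 of 10 fell in Zeb2 Id2 DKO against WT, where 1.58% did. The 4 were Hpgd, Vcam1, Spic and Hmox1 in both. These comparisons share the WT arrays. In Nfil3 Zeb2 DKO against WT, limma called 0 of 10 (0.00502% of all genes were called), and 0 of 10 had an unadjusted p under 0.05, against 4.16% of all genes. In Zeb2 Id2 DKO against Zeb2 KO the counts were 0 of 10 and 0 of 10, where 0.497% of all genes were called and 7.35% had an unadjusted p under 0.05. In Nfil3 Zeb2 DKO against Zeb2 KO they were 0 and 2 of 10, where 0.00502% and 8.5% of all genes were. In Zeb2 Id2 DKO against Nfil3 Zeb2 DKO they were 0 and 3 of 10, against 0.792% and 11.5%. With the same array left out, 4 of 10 fell in that last comparison, where 1.18% of all genes fell, and 1 of 10 rose in Nfil3 Zeb2 DKO against Zeb2 KO, where 0.251% did.

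The likeness of profiles was measured as the root mean square difference between 2 genes' log2 deviations from their own means over the 10 arrays, which share preparation and normalization. Among 19937 other genes, the nearest to Spic was Hmox1, and the nearest to Hmox1 was Spic, at 0.11 log2. The plot of profiles over the arrays shows both lines running together. On the 9 arrays other than Zeb2 KO replicate 3 their distance was 0.12, with Hmox1 at rank 2 from Spic and Spic at rank 1 from Hmox1. Hpgd and Vcam1 were 0.31 apart: Vcam1 ranked 7 among the genes nearest to Hpgd, and Hpgd ranked 103 among those nearest to Vcam1. Vcam1 was 0.35 from both Spic and Hmox1 over all arrays, and 0.21 and 0.22 from them without Zeb2 KO replicate 3.

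**Figure D3:**
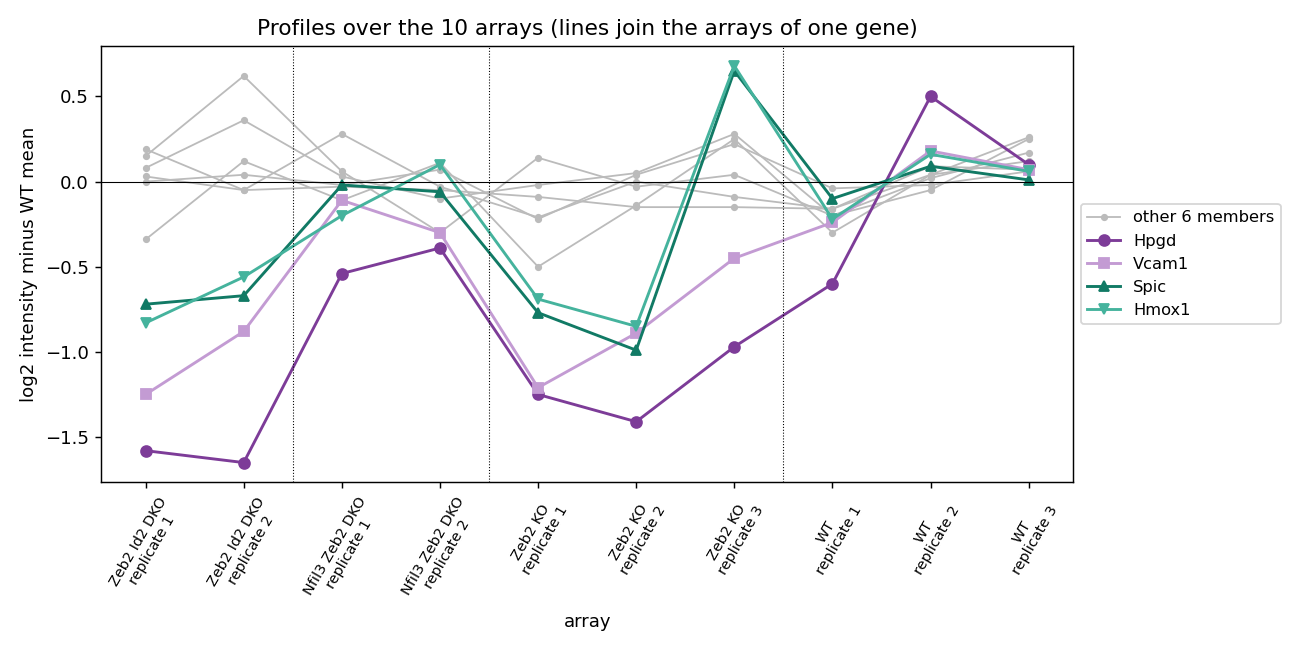
Log2 intensity minus the gene's WT mean (y axis) on each of the 10 arrays (x axis), with lines joining the arrays of one gene. Spic and Hmox1 are almost superposed, including their shared peak on Zeb2 KO replicate 3, where Hpgd and Vcam1 stay below the WT mean, and the other 6 genes (grey) lie between -0.50 (C1qc on Zeb2 KO replicate 1) and 0.62 (Slc40a1 on Zeb2 Id2 DKO replicate 2).

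By the same measure, the genes nearest to Hpgd were Arpin, an inhibitor of the Arp2/3 actin nucleator (0.22), Zfyve9, an adaptor of TGF-beta signalling (0.26), the nonclassical MHC gene H2-M2 (0.27), Esam, an adhesion molecule typical of a cDC2 subset (0.28), and Sulf2, a heparan sulphate sulphatase (0.29). Esam, for example, measured 6.15 and 5.87 log2 in Zeb2 Id2 DKO, 6.68 and 6.77 in Nfil3 Zeb2 DKO, 6.02, 6.36 and 6.55 in Zeb2 KO, and 6.50, 7.62 and 6.95 in WT. Nearest to Vcam1 were Nabp1, a single-stranded DNA binding protein (0.11), the small GTP-binding protein Gem (0.19), Arpin (0.19), Ccr7, the chemokine receptor that guides dendritic cells to T cell zones (0.21), and the kinase gene Nuak1 (0.21). Ccr7 measured 10.33 and 10.40 in Zeb2 Id2 DKO, 11.38 and 11.13 in Nfil3 Zeb2 DKO, 10.34, 10.73 and 11.26 in Zeb2 KO, and 11.34, 11.18 and 11.28 in WT. On Zeb2 KO replicate 3 it was within the WT range, as Vcam1 was not.

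Promoter windows of 5 members were available from RefSeq (GRCm38.p6), each running from 250 bases before the gene's start to 50 after it: Hpgd, Spic, Cd163, C1qb and C1qc. They were searched on both strands for CAGGTG, an E-box that ZEB repressors and E proteins can bind, and for CANNTG, the general E-box of which CAGGTG is one form. TGACTCA, the core of AP-1 and antioxidant elements, was searched too. CAGGTG occurred in the windows of Hpgd, a gene called in these comparisons, and C1qb, which was called in none, and in 20.3% of 32544 RefSeq promoter windows of the same length. CANNTG occurred in all 5 member windows and in 72.3% of all windows, and TGACTCA in none of the 5 and in 5.2% of all. The 250 bases upstream of the start are shown for the 2 available members with wide variation and for C1qb, as the other holder of CAGGTG. They run 5′ to 3′ on the gene's strand, with CANNTG matches in capitals. In Spic the single match begins at base 35 after the start and is not in the stretch shown.

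Hpgd, chr8:56294302-56294551, plus strand: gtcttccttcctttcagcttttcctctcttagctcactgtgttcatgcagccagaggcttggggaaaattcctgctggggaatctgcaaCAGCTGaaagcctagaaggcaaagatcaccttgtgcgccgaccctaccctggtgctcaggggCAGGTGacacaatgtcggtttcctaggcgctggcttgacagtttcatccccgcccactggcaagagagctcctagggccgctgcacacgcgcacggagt
Spic, chr10:88683024-88683273, minus strand: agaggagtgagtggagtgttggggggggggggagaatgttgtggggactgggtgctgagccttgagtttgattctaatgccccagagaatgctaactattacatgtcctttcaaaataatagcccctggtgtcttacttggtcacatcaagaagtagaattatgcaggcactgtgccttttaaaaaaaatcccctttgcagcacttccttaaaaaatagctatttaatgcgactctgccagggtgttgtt
C1qb, chr4:136886201-136886450, minus strand: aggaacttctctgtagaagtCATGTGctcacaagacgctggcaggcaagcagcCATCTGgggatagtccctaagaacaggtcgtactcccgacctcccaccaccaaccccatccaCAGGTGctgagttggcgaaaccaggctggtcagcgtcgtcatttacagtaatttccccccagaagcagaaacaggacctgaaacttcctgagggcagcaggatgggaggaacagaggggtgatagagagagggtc

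In Hpgd the capitals are CAGCTG, beginning at base -161 from the start, and CAGGTG, at base -99. In C1qb they are CATGTG at base -230, CATCTG at base -197 and CAGGTG at base -135. A match describes these letters and is not evidence that a factor binds there.

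Wider lists of the same pathways were examined too. Of 22 further genes of iron and haem handling, limma called 0 in any of the 6 comparisons with all arrays, and 0 to 5 of them had an unadjusted p under 0.05. The 5 of 22 occurred both in Zeb2 Id2 DKO against WT, where 10.2% of all genes did, and in Zeb2 KO against WT, where 7.39% did. Their median log2 fold change in Zeb2 Id2 DKO against WT was 0.08. Bach1, the haem-sensing repressor, measured 8.37 and 8.56 log2 in Zeb2 Id2 DKO, 8.39 and 8.28 in Nfil3 Zeb2 DKO, 8.23, 8.48 and 8.20 in Zeb2 KO, and 8.27, 8.80 and 8.87 in WT. Its groups overlapped in each comparison with WT, and its difference was -0.18 (-0.55 to 0.19) in Zeb2 Id2 DKO against WT and -0.34 (-0.67 to -0.01, adjusted p = 0.665) in Zeb2 KO against WT. Hp, which encodes haptoglobin and is also carried by neutrophils, measured 6.98 and 8.09 in Zeb2 Id2 DKO, 6.69 and 6.90 in Nfil3 Zeb2 DKO, 8.15, 7.51 and 7.58 in Zeb2 KO, and 6.29, 6.24 and 6.36 in WT. Its difference from WT was 1.24 (0.63 to 1.85, adjusted p = 0.0621) in Zeb2 Id2 DKO and 1.45 (0.90 to 1.99, adjusted p = 0.121) in Zeb2 KO. Both passed when replicate 3 of Zeb2 KO was left out (adjusted p = 0.0308 and 0.0324). So did Blvrb, a biliverdin reductase gene (0.90, adjusted p = 0.0166), and Trf, which encodes transferrin (0.64, adjusted p = 0.0354), in Zeb2 Id2 DKO against Nfil3 Zeb2 DKO. With all arrays their adjusted p was 0.0989 and 0.0798. Of 20 further complement genes limma called 0 in any comparison, with or without that array, and 0 to 2 had an unadjusted p under 0.05. Over the 6 comparisons 4.16% to 11.5% of all genes did. Of the complement list, 11 of the 23 measured genes were above background on no array.

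Among prostaglandin and leukotriene genes, limma called 0 of 22 besides Hpgd in any comparison with all arrays, and 1 to 6 had an unadjusted p under 0.05, the 6 in Zeb2 Id2 DKO against WT, where 10.2% of all genes did. With Zeb2 KO replicate 3 left out, 4 of the 22 changed between Zeb2 Id2 DKO and WT, where 3.81% of all genes did, and 3 of them rose, where 2.23% did. The rises were of the thromboxane synthase gene Tbxas1 (log2 fold change 0.80, limma adjusted p = 0.00358), the prostaglandin E2 receptor gene Ptger4 (0.56, adjusted p = 0.0234) and Ptgr1, a prostaglandin reductase gene (0.43, adjusted p = 0.0358). The fall was of the prostacyclin synthase gene Ptgis (-0.76, adjusted p = 0.0237). Of 10 further adhesion genes, among them Itga4 and Itgb1, which encode the integrin that binds Vcam1, limma called 0 in any comparison with all arrays, and 0 to 2 had an unadjusted p under 0.05. The 2 occurred in Zeb2 Id2 DKO against WT, where 10.2% of all genes did, and against Nfil3 Zeb2 DKO, where 11.5% did. The integrin gene Itgb7 rose in Zeb2 Id2 DKO against WT without Zeb2 KO replicate 3 (0.54, adjusted p = 0.0284).

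Among 22 other macrophage markers measured, limma called 1 lower (0.557% of all genes were) and 0 higher (0.878%) in Zeb2 Id2 DKO against WT. With an unadjusted p under 0.05 there were 6 of 22 in that comparison, against 10.2% of all genes, and 5 of 22 in Zeb2 KO against WT, against 7.39%. The gene that fell was Pparg, a nuclear receptor of lipid metabolism, at 5.93 and 5.83 log2 in Zeb2 Id2 DKO against 6.27, 6.78 and 6.58 in WT (log2 fold change -0.66, -0.95 to -0.37, limma adjusted p = 0.0374). Its Zeb2 Id2 DKO values lay just above the background of those arrays, 5.84 and 5.81, which may limit the size of the fall. Leaving out Zeb2 KO replicate 3, 3 of 22 fell, where 1.58% of all genes did, with Timd4 (-0.65, adjusted p = 0.0234), a receptor for exposed phosphatidylserine, and Treml4 (-0.49, adjusted p = 0.0444) added. The mean log2 intensity of the list was 6.52 to 6.61 on Zeb2 Id2 DKO arrays, 6.65 on both of Nfil3 Zeb2 DKO, 6.53 to 6.61 on Zeb2 KO arrays and 6.59 to 6.75 on WT arrays. Mertk, Mrc1, Cd5l, Vsig4, Cd209b and Ccr3 were above background on no array.

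Markers of other cell types differed between the same groups, as the plot of gene lists by array shows. The mean log2 intensity of 12 neutrophil genes was 8.0 to 9.17 on Zeb2 Id2 DKO arrays, 7.23 to 7.81 on those of Nfil3 Zeb2 DKO, 8.17 to 9.13 on those of Zeb2 KO and 6.62 to 6.84 on WT arrays, and 7 of them rose in Zeb2 Id2 DKO against WT. In that comparison 0.878% of all genes rose and 0.557% fell. Erythroid genes, 7 measured, differed from the WT mean by 0.98 and 0.81 on Zeb2 Id2 DKO arrays, by -0.68 and 0.05 on those of Nfil3 Zeb2 DKO, by 0.31, 0.50 and 0.35 on those of Zeb2 KO, and by 0.23, 0.20 and -0.42 on WT arrays; Car2 and Hemgn rose in Zeb2 Id2 DKO against WT. Plasmacytoid dendritic cell genes, 6 measured, differed from the WT mean by 0.68 and 0.54 in Zeb2 Id2 DKO and by -0.32 to 0.02 in the other mutants. Of these, Siglech (log2 fold change 1.67, limma adjusted p = 0.00164) and Bst2 (0.98, adjusted p = 0.034) rose in Zeb2 Id2 DKO against WT. For 6 genes listed as monocyte genes the differences were 0.42 and 0.47 in Zeb2 Id2 DKO and -0.18 to 0.34 in the other mutants, and Ms4a6c rose in Zeb2 Id2 DKO against WT (0.68, limma adjusted p = 0.045). Of these 6, Fn1 and F13a1 were above background on no array. Cd177, also among them, measured 6.99 and 7.63 in Zeb2 Id2 DKO, 7.77, 7.16 and 7.08 in Zeb2 KO, and 6.72, 6.72 and 6.64 in WT. Whether its signal came from monocytes or neutrophils was not tested. The 8 cDC2 genes differed from the WT mean by -0.29 and -0.29 in Zeb2 Id2 DKO and by -0.69, -0.46 and -0.48 in Zeb2 KO, with 0.04 and -0.25 in Nfil3 Zeb2 DKO and -0.21, 0.10 and 0.11 in WT. T cell genes, 7 measured, were at -0.55 and -0.50 in Zeb2 Id2 DKO and -0.39, -0.35 and -0.16 in Zeb2 KO, with 0.33 and 0.12 in Nfil3 Zeb2 DKO and -0.24, 0.09 and 0.16 in WT. Of these 7, limma called 3 lower in Zeb2 Id2 DKO against WT: Cd3d, Cd3g and Lat. Against Nfil3 Zeb2 DKO it called Cd3d and Cd3g lower, where 0.211% of all genes were. B cell genes, 7 measured, were at -0.52 and -0.37 in Zeb2 Id2 DKO and -0.51 and -0.61 in Nfil3 Zeb2 DKO. They were at -0.79, 0.31 and -0.94 in Zeb2 KO and 0.82, -0.39 and -0.43 in WT. NK cell genes, 8 measured, ranged from -0.22 to 0.42 over the arrays, and Il2rb fell in Zeb2 Id2 DKO against WT. Without Zeb2 KO replicate 3, limma called 1 lower in that comparison, Il2rb (-0.96, adjusted p = 0.0166), where 1.58% of all genes were. It called 1 higher, Klrk1 (0.73, adjusted p = 0.0134), where 2.23% were. For genes of splenic stroma and endothelium, another source of Vcam1, the list mean ranged from -0.15 to 0.05 over the mutant arrays, though single genes moved in both directions. Of these 15, Stab2, a scavenger receptor of sinusoidal endothelium, fell in Zeb2 Id2 DKO against WT (-0.65, -0.92 to -0.37, adjusted p = 0.0332). With an unadjusted p under 0.05 there were 5 of 15 in that comparison, against 10.2% of all genes. Without Zeb2 KO replicate 3, limma also called Pecam1 higher in it (0.44, adjusted p = 0.0332). The part of these cells in the levels of Hpgd, Vcam1, Spic and Hmox1 was not tested.

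**Figure D4:**
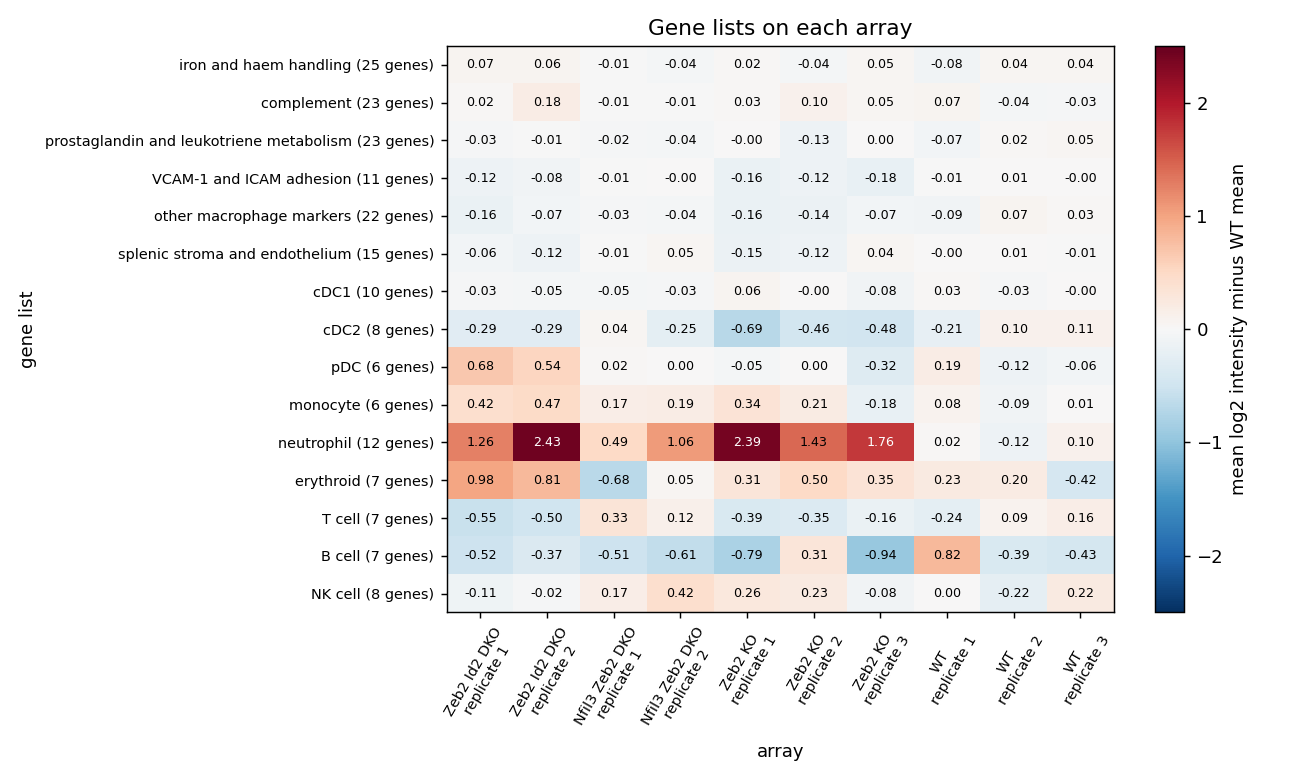
Mean log2 intensity of each gene list (rows, with the number of genes measured) minus its WT mean, on each array (columns), written in each cell and coloured from blue (lower) to red (higher). Neutrophil genes are higher on every mutant array, from 0.49 to 2.43, and the 22 other macrophage markers stay within 0.16 of the WT mean.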

How the data were processed

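RNA of sorted splenic cDC1s was amplified with the NuGen Ovation PicoSL WTA kit and hybridised to Affymetrix arrays, per the labels' protocols; there were 10 samples. The deposited values are linear intensities that the authors made with RMA in Affymetrix Expression Console, per the submitters' processing notes; software version and annotation are not given in the sources used here. They lay between 5.05 and 16019, and log2 was taken before every analysis. Of 28853 probe sets, 21789 named 1 gene; the one with the highest mean was kept per gene, which left 19938 genes. No 2 arrays held identical values.

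A mean per genotype was fitted with limma 3.58.1 (R 4.3.3; lmFit, eBayes; 6 residual degrees of freedom), 6 comparisons were made, p-values were adjusted by Benjamini-Hochberg over all genes of a comparison, and a gene was called at an adjusted p under 0.05. The number of arrays limits precision. Genes named are the 10 members, the targeted genes, called or defining genes of each list, and the 5 nearest profiles per member without predicted, small RNA, receptor segment, olfactory and sex-linked genes. Members, lists and alternatives were chosen with earlier results of these data known. Replicate numbers do not pair the arrays: deviations of same-numbered arrays correlated at -0.31 to 0.16. Alternatives concerned probe sets, dim genes, scaling, offset, variance prior, array weights, the genotypes fitted, a replicate block and each array left out.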

Additional observations from a re-analysis of the deposited data

How the results depend on the processing

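Set against WT, Zeb2 Id2 DKO had 2 of the 10 members lower with all arrays. It was 1 with log2 of the intensity plus 16, which ended the call of Vcam1. It was 4 with array weights (limma) and 4 with only the genotypes compared in the fit. In these fits 97, 499 and 244 of all genes were lower, against 111. With single arrays of WT or Zeb2 KO left out it ranged from 0 to 4, where 43 to 316 of all genes were lower. The 4 were without Zeb2 KO replicate 3, which gave the 316. In Zeb2 KO against WT the count was 0 with all arrays and 2 with array weights (42 of all genes, against 3). It was 0 to 4 with single arrays of WT or Zeb2 KO left out, where 0 to 88 of all genes were lower. The 4 and the 88 were both without Zeb2 KO replicate 3. In Zeb2 Id2 DKO against Nfil3 Zeb2 DKO it was 0 with all arrays, 2 with array weights and 4 with only these genotypes in the fit (421 and 310 of all genes, against 42). It was 0 to 4 with single arrays of WT or Zeb2 KO left out, where 33 to 235 of all genes were lower. The 4 and the 235 were both without Zeb2 KO replicate 3. Members higher in Nfil3 Zeb2 DKO than in Zeb2 KO numbered 0. They numbered 0 to 1 with single arrays of WT or Zeb2 KO left out, where 0 to 50 of all genes were higher. The 1 and the 50 were both without Zeb2 KO replicate 3. The replicate block, which has no basis in the labels, left the count in Zeb2 Id2 DKO against WT at 2 and changed no other call of a member. Over all genes it gave 183 calls in that comparison, against 286 without it, and array weights gave 1076. Under the 19 alternatives the log2 fold change in Zeb2 Id2 DKO against WT ranged from -1.91 to -1.37 for Hpgd, -1.25 to -0.88 for Vcam1, -0.74 to -0.44 for Spic and -0.83 to -0.44 for Hmox1, so no sign turned there. The adjusted p ranged from 0.000569 to 0.128 for Hpgd and from 0.00101 to 0.345 for Vcam1. Apart from the arrays left out, the cause of these shifts was not tested. With 2 or 3 arrays per genotype and 1 array that stands apart, which of these genes pass depends on the arrays and genotypes that enter the fit, and genes at background can hide a difference.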

Other observations

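The genes nearest in profile to Spic and Hmox1, beside each other, were not macrophage list members. Tnfrsf9, the costimulatory receptor 4-1BB, lay 0.19 log2 from Spic and 0.20 from Hmox1, and measured 6.58 and 6.75 in Zeb2 Id2 DKO, 7.36 and 7.19 in Nfil3 Zeb2 DKO, 6.68, 6.61 and 7.48 in Zeb2 KO, and 7.19, 7.44 and 7.36 in WT. Bcl2l11, which encodes the pro-apoptotic protein BIM, lay 0.21 from both, with 7.66 and 7.70 in Zeb2 Id2 DKO, 8.15 and 7.93 in Nfil3 Zeb2 DKO, 7.32, 7.34 and 8.82 in Zeb2 KO, and 7.52, 8.29 and 8.23 in WT. Aldh1a2, the retinaldehyde dehydrogenase gene, lay 0.22 from Hmox1, and measured 5.53 and 5.62 in Zeb2 Id2 DKO, 6.17 and 6.11 in Nfil3 Zeb2 DKO, 5.70, 5.63 and 6.72 in Zeb2 KO, and 5.87, 5.93 and 5.96 in WT. Its values in Zeb2 Id2 DKO and in Zeb2 KO replicates 1 and 2 lay below background, and those of WT close to it. In each of these genes Zeb2 KO replicate 3 was the highest of the 10 arrays. Zmynd15 and Rogdi were near Spic (0.19 and 0.22) and the cyclin gene Ccna2 near Hmox1 (0.22).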
